A study of Homo sapiens with 22 samples.

Results

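FOXA2 binding in PC3 cells under the LSD1 inhibitor ORY-1001 was set directly against FOXA2 binding under the LSD1 inhibitor C12. A region of one list was counted as shared if it overlapped a region of the other list by at least 1 bp, and as ORY-only or C12-only otherwise. The ORY-1001 list held 13732 regions and the C12 list 8352, together 22084 of the 871377 regions in the 22 lists of the series. There were 6056 shared regions on each side, 7676 ORY-only regions and 2296 C12-only regions.

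PC3 is a prostate cancer line from a bone metastasis. FOXA2 was profiled by ChIP-seq, which recovers and sequences DNA bound by a protein, after 10 µM ORY-1001 for 4 h, after 0.5 µM C12 for 4 h, or with vehicle (24038 regions), with the same labelled antibody and no further treatment in the labels. Vehicle-treated PC3 cells also gave lists of accessible chromatin (ATAC-seq) and of H3K27ac, a histone mark of active enhancers and promoters, and cells transfected with a non-targeting siRNA gave lists of JUN and FOSL1, which are subunits of AP-1. The other lists of the series came from further PC3 samples and from NCI-H660 and LNCaP cells. There was 1 list per inhibitor, so there was no replicate check and no test, and compound, dose and library cannot be told apart. Read numbers were not given in the lists, so the depth was unknown. All intervals are 95% intervals and cover counting error only.

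FOXA2 is a pioneer factor of the forkhead family that can bind its motif in closed chromatin and helps other factors to reach enhancers. LSD1, encoded by KDM1A, removes methyl groups from lysines of histone H3 and of other proteins, and acts in complexes with the CoREST proteins and histone deacetylases. AP-1 is a family of dimers of JUN and FOS proteins that commonly binds enhancers. The labelled line was checked by H3K27ac within 1 kb of transcription starts, since no RNA was measured in these lists. The mark was present at all 6 mesenchymal and PC3 genes examined, among them VIM, CD44, FOSL1 and FOXA2. It was absent at the luminal genes KLK2, KLK3 and TMPRSS2. Among 5 neuroendocrine genes it was present only at SYP.

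The strongest regions of each class were chosen by score, a whole number deposited for each region and taken to be the −log10 q-value of the peak caller multiplied by 10. Places overlapped in at least 17 of the 22 lists, called recurrent places below, were left out. The sequences show what leading shared and ORY-only calls look like, as 120 bases of the hg19 plus strand around the centre of the region. Capitals mark matches to the forkhead motif (T, then A or G, then TTT, then A or G, then C or T, on either strand) or to the AP-1 motif (TGAGTCA or TGACTCA).
Shared, 20950 bp from NRP1, chr10:33445080-33445199: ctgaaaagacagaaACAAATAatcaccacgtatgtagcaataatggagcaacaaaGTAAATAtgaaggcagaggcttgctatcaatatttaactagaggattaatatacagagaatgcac
Shared, in an intron of KCNMA1, chr10:78923828-78923947: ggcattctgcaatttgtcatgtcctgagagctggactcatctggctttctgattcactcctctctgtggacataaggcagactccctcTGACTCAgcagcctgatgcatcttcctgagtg
ORY-only, in an intron of PC, chr11:66671672-66671791: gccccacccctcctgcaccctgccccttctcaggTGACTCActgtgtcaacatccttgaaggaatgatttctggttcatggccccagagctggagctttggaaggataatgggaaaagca

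The leading shared regions lay at NRP1, the neuropilin co-receptor for VEGF and semaphorins, and at KCNMA1, which encodes a calcium-activated potassium channel. The NRP1 promoter region, chr10:33553138-33553579, scored 8091 under vehicle, 8041 under ORY-1001 and 4784 under C12. The intergenic NRP1 region scored 12604, 2637 and 2624, so that both inhibitor scores lay well below the vehicle score and close to each other. The KCNMA1 region scored 3302, 3725 and 2094. These 3 regions were accessible and overlapped H3K27ac, JUN and FOSL1 regions.

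The leading ORY-only and C12-only regions were weaker. The region in PC, the gene of pyruvate carboxylase, scored 952 under vehicle and 890 under ORY-1001 and was not called under C12. It was accessible, carried H3K27ac and JUN, and held an AP-1 match. The region near TCF4, a basic helix-loop-helix factor gene, scored 1160 under vehicle and 737 under C12 and was not called under ORY-1001. It was not accessible by the ATAC list, but overlapped H3K27ac, JUN and FOSL1 regions. The region far from HTR1B, a serotonin receptor gene, scored 606 under ORY-1001, and that far from PCDH11X, a protocadherin gene, scored 624 under C12. Neither was called under vehicle or under the other inhibitor. The region near PTHLH, the gene of parathyroid hormone-related protein, scored 428 under ORY-1001 alone.

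The central 31 bases of the NRP1, KCNMA1 and PC windows shown, and of the TCF4 region, occurred once in the genome. Those of the 3 regions named above that were not called under vehicle occurred more often, 2634 times for the HTR1B region, 3 times for the PCDH11X region and 2 times for the PTHLH region. Other leading regions went the other way. An ORY-only region nearest to TENM2 was called under vehicle, and its central bases occurred 4360 times. A C12-only region nearest to UQCRFS1 was not called under vehicle, and its central bases occurred 1 time. The leading regions named here were each overlapped in 6 to 14 of the 22 lists.

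Most C12 regions were also ORY-1001 regions, whereas under C12 fewer than 1 in 2 of the regions of the longer ORY-1001 list were called. Of the C12 regions 72.5% were found under ORY-1001 (71.5 to 73.5%). Of the ORY-1001 regions 44.1% were found under C12 (43.3 to 44.9%). Shared regions had the higher scores, with a median of 195 on the ORY-1001 side and 156 on the C12 side, against 50 for ORY-only and 50.5 for C12-only regions. They were also wider, with medians of 355 and 325 bp against 293 and 285 bp. Recurrent places made up 6.41% of the shared regions on the ORY-1001 side, and there were 6 among the ORY-only and 1 among the C12-only regions. Few ORY-only or C12-only regions lay close to a region of the other list. Within 500 bp, 82 of the ORY-only regions (1.07%) and 49 of the C12-only regions (2.13%) had one. This is a measure of position and not of signal near the threshold.

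When the 3 lists were merged, 29835 places were obtained. Of these, 5750 were in all 3 lists, 3072 in vehicle and ORY-1001, and 1349 in vehicle and C12. Only 293 places were in both inhibitor lists and not in vehicle. Places of 1 list numbered 13830 for vehicle, 4597 for ORY-1001 and 944 for C12.

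**Figure D1:**
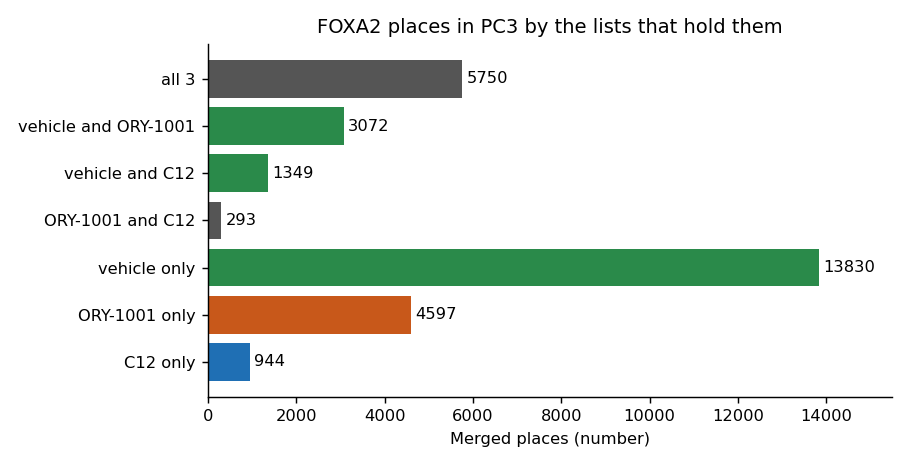
Number of merged FOXA2 places in PC3 cells (x axis) for each combination of the vehicle, ORY-1001 and C12 lists that held them (y axis). The 293 places of both inhibitors without vehicle were the fewest, and the 13830 places of vehicle alone the most.

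Presence in the other list followed the score. In the lowest decile of ORY-1001 scores 4.00% of regions were found under C12, and in the highest decile 97.9%. In the lowest decile of C12 scores 19.0% were found under ORY-1001, and in the highest 99.4%. The lowest deciles were also the least often present under vehicle, with 7.50% for ORY-1001 and 27.6% for C12, and the least often held a forkhead match, with 28.5% and 37.2%. From the fifth decile up, 65.2% or more of the regions of each list held a forkhead match.

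**Figure D2:**
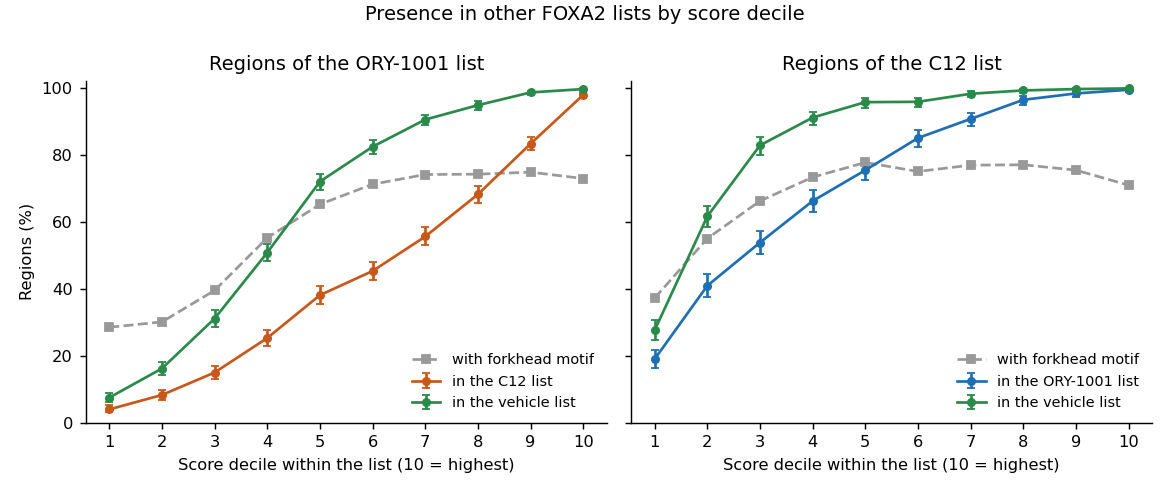
Percent of FOXA2 regions found in the other inhibitor list, found in the vehicle list, or holding a forkhead match within 100 bp of the centre (y axis), by score decile within the ORY-1001 list (left) and the C12 list (right). Bars are Wilson 95% intervals. In the lowest decile 4.00% and 19.0% were found in the other inhibitor list, and in the highest 97.9% and 99.4%.

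Where both lists held a region, its scores went together across regions. Over the 6068 overlapping pairs the log2 scores had a Pearson r of 0.84 and the scores a Spearman rho of 0.82. This is a description across regions of 1 pair of libraries, and regions are not replicates. The ORY-1001 score was the higher one in 4184 pairs (69.0%), the median log2 ratio of ORY-1001 to C12 scores was 0.36, and 79.7% of the pairs lay within 2-fold. Scores depend on depth as well as on enrichment, so a difference in their level cannot be read as one in binding. Over 5769 triples with a vehicle region the median score was 388 under vehicle, 205 under ORY-1001 and 164 under C12. The ORY-1001 score lay below the vehicle score in 79.1% of the triples and the C12 score in 90.6%.

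Shared regions were nearly all vehicle regions, whereas many regions of 1 inhibitor list were not. Of the shared regions 95.1% were present in the vehicle list (94.5 to 95.6%), against 58.9% of the C12-only regions (56.9 to 60.9%) and 40.1% of the ORY-only regions (39.0 to 41.2%). The C12-only share exceeded the ORY-only share by 18.8 percentage points (16.5 to 21). A further pair of vehicle FOXA2 lists from PC3, whose antibody was not labelled, gave differences of 12.6 and 12.9 points.

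Accessible chromatin and JUN showed the same order of the classes. The ATAC list held 95% of shared, 69.8% of C12-only and 60.6% of ORY-only regions, and the difference between the last 2 classes was 9.20 points (7.0 to 11.3). JUN was present at 70.9%, 36.5% and 25.1%, a difference of 11.3 points (9.13 to 13.5). H3K27ac was present at 77.8%, 44.6% and 41.5%, a difference of 3.10 points (0.792 to 5.42). FOSL1, whose list was short (3843 regions), was present at 21.1%, 4.62% and 5.73%.

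Some of these differences changed sign when regions present under vehicle and regions absent from it were taken apart. Among regions present under vehicle (3079 ORY-only and 1352 C12-only), ATAC shares were 93.8% and 94.7%, a difference of 0.952 points (-0.592 to 2.35). H3K27ac was then lower in C12-only regions, at 61.9% against 69.0%, a difference of -7.11 points (-10.2 to -4.07). FOSL1 was lower as well, at 4.44% against 8.02%. JUN remained higher in C12-only regions, at 54.1% against 48.4%, a difference of 5.72 points (2.52 to 8.89). Among regions absent from vehicle (4597 ORY-only and 944 C12-only), accessibility was 34.0% for C12-only and 38.3% for ORY-only, and H3K27ac 19.9% and 23.1%. The 298 shared regions absent from vehicle lay between these and the vehicle regions, with 64.8% accessible (59.2 to 70.0%), 44% with H3K27ac and 31.9% with JUN.

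**Figure D3:**
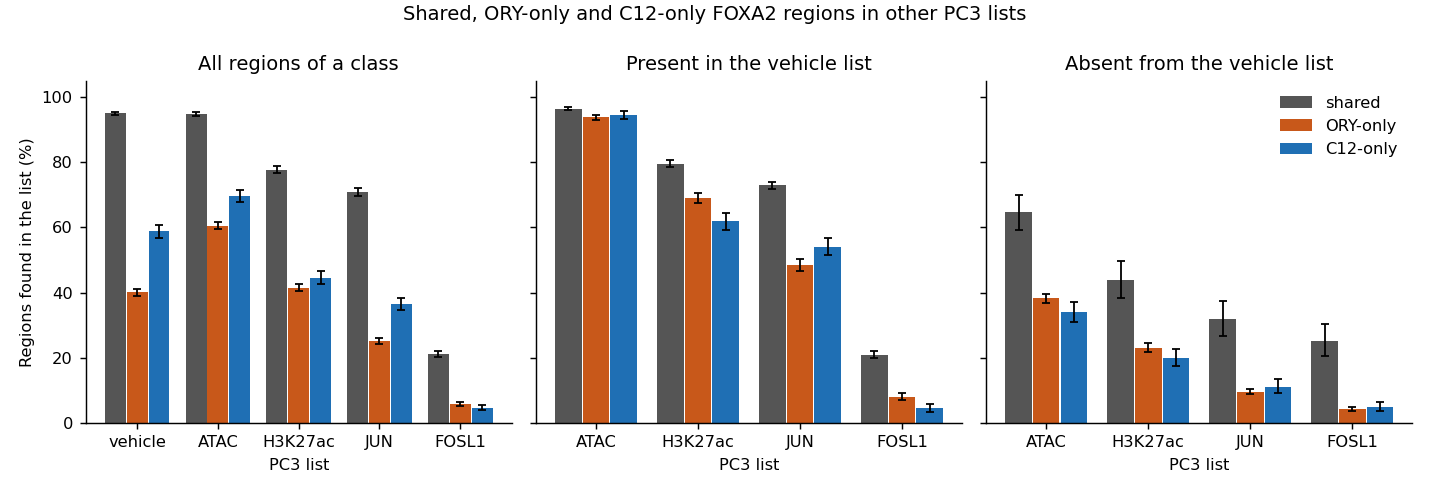
Percent of shared (ORY-1001 side), ORY-only and C12-only FOXA2 regions found in other PC3 lists (y axis), for all regions (left), those present in the vehicle list (middle) and those absent from it (right). Bars are Wilson 95% intervals. H3K27ac was higher at C12-only than at ORY-only regions in all (44.6% and 41.5%) but lower within the vehicle regions (61.9% and 69.0%).

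The forkhead motif share differed more between vehicle regions and the rest than between the inhibitor lists. A match lay within 100 bp of the centre in 70.8% of shared regions, 58.9% of C12-only and 48.9% of ORY-only regions, against 29.7% of all PC3 ATAC regions. GC content was 43.5%, 41.9% and 46.4% in these classes and 49.2% in the ATAC regions. Among regions present under vehicle the shares were 76.8% for C12-only (74.5 to 78.9%) and 73.0% for ORY-only (71.4 to 74.5%). Among those absent from vehicle they were 33.3% (30.3 to 36.3%) and 32.8% (31.5 to 34.2%), below the 40.3% and 39.6% found 2 kb away. The 298 shared regions absent from vehicle held a match in 35.6% (30.4 to 41.2%), against 37.1% 2 kb away. The GC content of regions absent from vehicle differed from that 2 kb away. It was 45.8% against 37.3% for C12-only, 47.7% against 37.6% for ORY-only and 46.8% against 39.0% for shared regions. The part of GC content in these motif shares was not tested.

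AP-1 matches lay in 24.7% of shared, 16.7% of C12-only and 16.1% of ORY-only regions, against 16.8% of all PC3 ATAC regions. Within the vehicle regions it was less frequent in C12-only (22.9%, 20.8 to 25.2%) than in ORY-only regions (27.9%, 26.4 to 29.5%), although JUN itself was the more frequent there. GC content moved with this split. In vehicle regions it was 39.2% for C12-only and 44.4% for ORY-only, and its part in the motif shares was not tested. Outside the vehicle list AP-1 shares were 7.73% and 8.09%, against 2.01% and 2.97% at 2 kb distance.

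All classes lay mainly away from genes' starts. Intergenic sequence held 52.5% of shared, 53.5% of ORY-only and 52.5% of C12-only regions, and introns of protein-coding genes held 40.1%, 38.7% and 40.8%. Promoters, taken as 1 kb on either side of a protein-coding transcription start, held 4.31%, 4.76% and 3.57%. The C12-only share was lower than the ORY-only share by 1.18 points (difference -1.18, interval -2.03 to -0.229). Within vehicle regions the promoter shares were 6.14% for ORY-only (5.34 to 7.04%) and 3.62% for C12-only (2.75 to 4.76%). The median distance to a transcription start was 55.9 kb for shared, 71.4 kb for ORY-only and 77.1 kb for C12-only regions. Absent from vehicle, it was 97.7 kb and 111 kb for the last 2 classes.

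Seen from the vehicle list, 5771 of its regions (24.0%) were also called under both inhibitors, 3083 (12.8%) under ORY-1001 only, 1354 (5.63%) under C12 only and 13830 (57.5%) under neither. The first of these groups had the highest vehicle scores, with a median of 388. Those called under C12 only had a median of 231, and those called under ORY-1001 only one of 172. JUN was present at 73.1% of the regions called under both, 54.3% of those called under C12 only, 48.7% of those called under ORY-1001 only and 30.4% of those called under neither. GC content was 43.1% at the vehicle regions called under ORY-1001 only and 38.2% at those called under C12 only, against 37.0% at those called under neither.

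To compare the inhibitors free of list length, equal numbers of the highest-scoring regions were taken. At every number tried, ORY-1001 and C12 overlapped each other more than either overlapped vehicle. With 500 regions per list, 80.6% of the ORY-1001 regions were found among those of C12 (76.9 to 83.8%), 54.2% among those of vehicle (49.8 to 58.5%), and 60.2% of the C12 regions were found among those of vehicle (55.8 to 64.4%). With 4000 regions the values were 73.9%, 57.0% and 64.5%. With 8352 regions, all of the C12 list, they were 64.3%, 60% and 61.2%. The lowest score taken then differed widely, at 65 for ORY-1001, 13 for C12 and 220 for vehicle.

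The contrast between the classes depended on that number. At 8352 regions per list there were 2982 ORY-only and 2978 C12-only regions, and the C12-only shares were the lower ones for vehicle (63.1% against 74.8%), ATAC (73.2% against 91.7%), H3K27ac (48.4% against 66.4%), JUN (41.0% against 43.6%) and the forkhead motif (59.5% against 71.1%). The C12 list was then used down to its threshold and the ORY-1001 list was not, which sets weak calls of one list against stronger calls of the other. At 4000 regions per list there were 1046 ORY-only and 1042 C12-only regions. Both were then mostly vehicle regions (92.9% and 96.3%) and accessible (96.2% and 95.7%). Of these ORY-only regions 37.6% were in the full C12 list, and of these C12-only regions 78.7% were in the full ORY-1001 list.

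A few differences were seen at 4000 regions. JUN was present at 69.9% of C12-only (67.0 to 72.6%) and 54.9% of ORY-only regions (51.8 to 57.9%). Promoters held 3.55% of C12-only (2.59 to 4.86%) and 9.37% of ORY-only regions (7.75 to 11.3%). H3K27ac was present at 70.3% and 75.7%. With 2000 regions per list, JUN was present at 78.3% of 470 C12-only and 63.0% of 473 ORY-only regions, and promoters held 3.62% and 8.88%. With 8352 they held 3.66% and 7.88%. The lower promoter share of C12-only regions was thus found with the full lists and at each of these numbers, but its interval at a promoter width of 5 kb included 0.

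**Figure D4:**
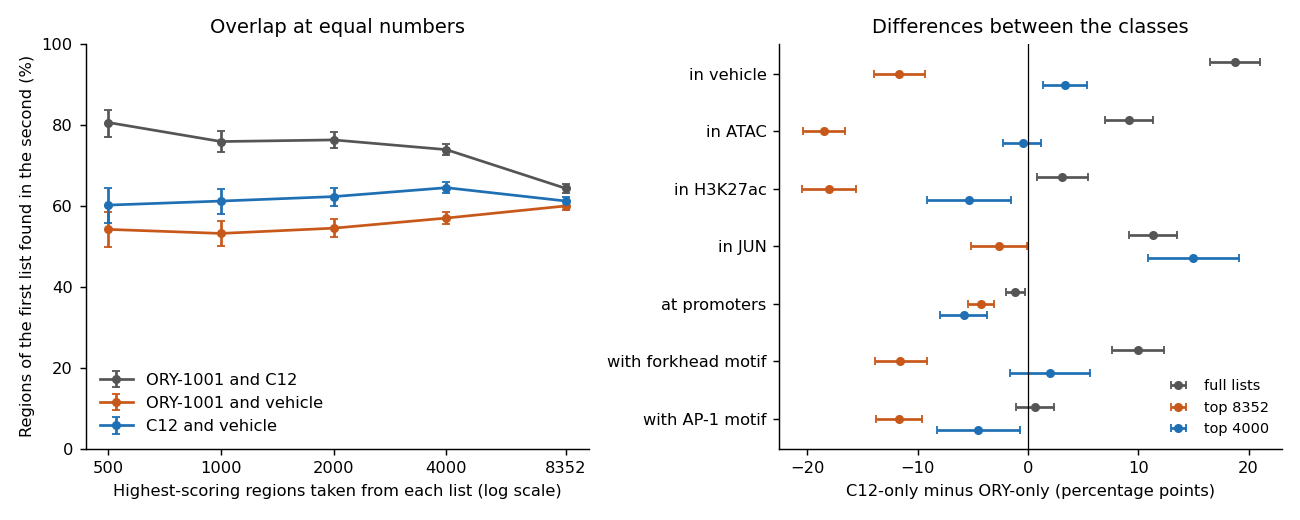
Left, percent of the highest-scoring regions of one FOXA2 list found among as many of another (y axis) by the number taken (x axis, log scale), falling from 80.6% to 64.3% for ORY-1001 and C12. Right, C12-only minus ORY-only share in percentage points for each property, with the full lists, the top 8352 and the top 4000 regions, where the difference at promoters was negative in all 3. Bars are Wilson (left) and Newcombe (right) 95% intervals.

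The genes nearest to most ORY-only and C12-only regions were largely shared between both classes. For ORY-only regions they were CTNNA3 (85 regions), CSMD3 (75), PCDH15 (73), ZWINT (49) and RALYL (45). For C12-only regions they were PCDH15 (20 regions), CTNNA3 (18), CSMD3 (17), RALYL (16) and PRKG1 (13). CTNNA3 encodes a catenin of cell junctions, PCDH15 a protocadherin, ZWINT a kinetochore protein and PRKG1 a cGMP-dependent protein kinase. Most of these regions were absent from vehicle, for instance 80 of the 85 ORY-only and 15 of the 18 C12-only regions at CTNNA3, and 69 of 73 and 18 of 20 at PCDH15. The lowest share among these C12-only leaders was at PRKG1, with 10 of 13. For shared regions the leading genes were CWH43 (45 regions), RP11-685N3.1 (36), ZNF33B (26), SPIN4 (24) and TPTE (21), and recurrent places made up 34, 23, 20, 9 and 8 of these. Outside recurrent places, a ranking made after the values were seen, the leading genes for shared regions were CTNNA3 (20), SPIN4 (15), MYC (14), CSMD3 (13) and FOXP1 (13). Of the 3479 genes nearest to an ORY-only region 46.9% were also nearest to a shared region, and of the 1530 nearest to a C12-only region 55.8% were.

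The regions of 1 inhibitor list that were absent from vehicle were concentrated on few chromosomes. Chromosomes 8, 10 and 14 together held 36.6% of the ORY-only (35.2 to 38.0%) and 41.0% of the C12-only regions absent from vehicle (37.9 to 44.1%). They held 16.0% of all vehicle regions, 16.4% of all ATAC regions and 18.5% of the shared regions. ORY-only and C12-only regions present under vehicle were not concentrated in this way, with 15% and 17.3%. The 10 Mb stretch with most of them in each list was the same one, at 50 to 60 Mb of chromosome 10, with 219 ORY-only and 51 C12-only regions absent from vehicle, beside 145 vehicle regions. Of the 10 such stretches with most ORY-only regions absent from vehicle, 6 were among the 10 with most C12-only ones. The 10 held 26.1% of those ORY-only regions, 28.5% of those C12-only regions and 7.12% of the vehicle regions. The 3 chromosomes were singled out after the values were seen. DNA copy number was not measured in these lists.

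**Figure D5:**
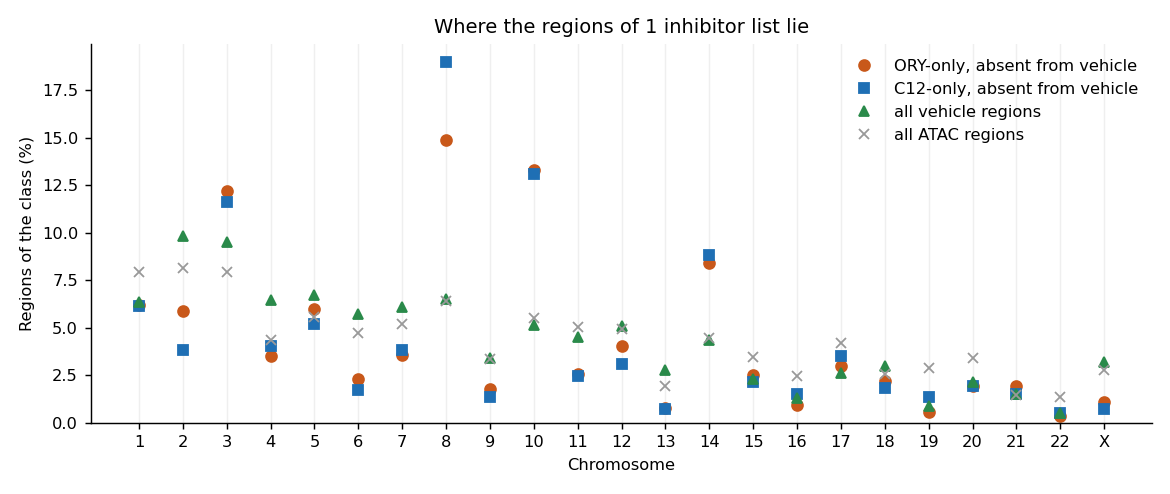
Percent of regions on each chromosome (y axis) for ORY-only and C12-only FOXA2 regions absent from the vehicle list, for all vehicle FOXA2 regions and for all PC3 ATAC regions. Both classes of 1 inhibitor list stood above the vehicle list on chromosomes 3, 8, 10 and 14, with 14.9% and 19.0% against 6.51% on chromosome 8.

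Repeated sequence was counted over the whole genome and was more frequent in regions absent from vehicle. The central 31 bases of a region occurred more than once in the genome for 25.5% of ORY-only (24.3 to 26.8%) and 26.9% of C12-only regions absent from vehicle (24.2 to 29.8%), and for 43.3% of the shared regions absent from vehicle (37.8 to 49.0%). The shares for ORY-only and C12-only regions present under vehicle were 9.58% and 9.69%, close to the 8.38% of all vehicle regions. Shared regions present under vehicle had a higher share, at 14.5% on the ORY-1001 side (13.6 to 15.5%) and 15% on the C12 side. The part of repeated sequence in the calls was not tested.

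Genes of 11 lists and single luminal genes were then examined within 50 kb of the gene body. Of 20149 protein-coding genes, 23.3% had a shared region there, 24.6% an ORY-only region and 9.32% a C12-only region, and longer genes have more room for one. Of the 10 loci that the study tested or displayed, which were chosen by the study on these lines, 6 had a shared, 6 an ORY-only and 3 a C12-only region. TP63, the basal lineage factor p63, had 3 shared, 6 ORY-only and 0 C12-only regions, with highest scores of 1131 under vehicle, 841 under ORY-1001 and 608 under C12. At PTHLH the highest scores were 4139, 872 and 993. At CEP55, a gene of the final step of cell division, they were 591, 674 and 230. INCENP had no region in any of the 3 lists, and NOTCH1 had one under vehicle alone, with a score of 127.

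Of 10 AP-1 subunit genes 6 had a shared, 2 an ORY-only and 1 a C12-only region. The JUN locus scored 339 under vehicle, 415 under ORY-1001 and 198 under C12, and the FOSL1 locus 284, 335 and 166. FOS had a vehicle region, which scored 92, and a C12-only region, which scored 75, and none under ORY-1001. Among luminal genes, the KRT8 locus, a luminal keratin, scored 1229, 1299 and 766, and the adjoining KRT18 counts the same region. TMPRSS2 scored 743, 315 and 115. KLK2 and KLK3, which encode kallikreins, had none in any of the 3 lists.

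Of 13 genes of the FOXA family and of LSD1 complexes 3 had a shared, 2 an ORY-only and 0 a C12-only region. The FOXA1 locus held 4 shared regions and 1 ORY-only region, with highest scores of 789, 604 and 261. The FOXA2 locus scored 1099, 676 and 604. HDAC1, a deacetylase of the CoREST complex, scored 1243, 1388 and 919. KDM1A and RCOR1, which encode LSD1 and a CoREST protein, had vehicle regions with scores of 90 and 199 and no region under either inhibitor.

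Of 12 mesenchymal genes 1 had a shared, 6 an ORY-only and 1 a C12-only region, and 10 had a vehicle region. Among all protein-coding genes 24.6% had an ORY-only region. The share of them with a vehicle region was not counted, and whether the list differs from all genes was not tested. FN1, the fibronectin gene, scored 88 under vehicle, 183 under ORY-1001 and was not called under C12. AXL, a receptor tyrosine kinase, scored 155 and 135 and was not called under C12. CD44 was the mesenchymal gene with a shared region, with 771, 275 and 226. VIM, the vimentin gene, had a vehicle score of 333 and no region under either inhibitor. Of 10 basal epithelial genes 2 had a shared, 4 an ORY-only and 1 a C12-only region, and ITGB4, an integrin of hemidesmosomes, scored 1072, 1126 and 639.

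Of 12 neuropilin and VEGF genes 5 had a shared, 6 an ORY-only and 2 a C12-only region. NRP1 alone held 12 shared, 4 ORY-only and 1 C12-only regions. SEMA3A, a secreted ligand of neuropilin, held 5 C12-only, 3 shared and 1 ORY-only regions, and its highest scores were 812, 317 and 164. KDR, the main VEGF receptor of endothelium, scored 980, 803 and 407. Of 14 TGF-beta and activin genes 4 had a shared, 5 an ORY-only and 2 a C12-only region. TGFBR2, the type II receptor, held 4 shared regions, with highest scores of 544, 590 and 434. SMAD3 held 3 ORY-only regions and no C12 region, and INHBA, an activin subunit, 1 C12-only region.

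Of 11 YAP and TEAD genes 4 had a shared, 4 an ORY-only and 1 a C12-only region. WWTR1 and TEAD1, the coactivator TAZ and its DNA-binding partner, had 4 and 2 ORY-only regions and none under C12. CCN1, a target of the pathway, held 3 shared regions with highest scores of 416, 263 and 100. Of 16 mitosis and kinetochore genes 4 had a shared, 7 an ORY-only and 2 a C12-only region. AURKB, a mitotic kinase, scored 360 under vehicle, 416 under ORY-1001 and was not called under C12, whereas ERCC6L scored 127 under vehicle and 33 under C12 and was not called under ORY-1001. Of 7 hepatocyte nuclear factor genes 2, 2 and 1 had a shared, an ORY-only and a C12-only region. Of 10 neuroendocrine genes 1, 1 and 0 did, and INSM1, a neuroendocrine transcription factor, scored 927, 129 and 373.

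Across the 129 genes examined, 83 had a vehicle region, 64 an ORY-1001 region and 47 a C12 region. The shares of all protein-coding genes with a region of each whole list were not counted. These counts therefore do not show whether the examined genes differ from other genes. Of the 41 genes with a region in all 3 lists, the highest C12 score exceeded that of ORY-1001 at 8, including PTHLH, INSM1, NDC80 and CCBE1. The highest ORY-1001 score exceeded that of vehicle at 11 of the 41, including CEP55, JUN and FOSL1, and the highest C12 score did so at 2.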

How the data were processed

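The authors profiled FOXA2, JUN, FOSL1 and H3K27ac by ChIP-seq and open chromatin by ATAC-seq in PC3 cells. Reads were aligned to hg19 with BWA (version 0.7.17-r1188) and enriched regions were called with MACS2 (version 2.1.4), per the submitters' processing notes. Control libraries, caller settings and any pooling of replicates were not given in the sources used here. Every list holds intervals, and the score of each region was deposited by the authors as a whole number with a minimum of 13 in the 3 FOXA2 lists compared. The score was used to rank regions, to set minimums and to describe score levels by medians, ratios and correlations. Its reading as 10 times a −log10 q-value is an inference from its range. Other values of the lists were deposited as interval ends.

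The labels gave the groups, and each group compared held 1 list. Overlaps, shares with Wilson intervals and differences with Newcombe intervals were computed in Python (version 3.11.15) with numpy (version 2.4.6) and scipy (version 1.17.1), and the interval code was tested on simulated lists with known overlaps. No test between inhibitors was possible. Annotation was GENCODE 44 in its hg19 version. Motifs and copies of central bases, the latter counted on both strands with numba (version 0.67.0), came from the hg19-equivalent reference.

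Regions were named by score: the top 3 of each class outside places found in at least 17 of the 22 lists, and the top 2 of each class with and without a vehicle region. Genes were named as the 5 nearest to most regions of each class, and as members of 12 lists, of which a few members and a few of the sequences are not reported here. The classes, gene lists and alternatives were chosen with earlier results of these data known.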

Additional observations from a re-analysis of the deposited data

Results flagged for a closer look

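The FOXA2 lists of NCI-H660 cells, a neuroendocrine prostate cancer line, entered no comparison above and showed a signal at the PC3 regions absent from the PC3 vehicle list. Of the 4895 such ORY-1001 regions 6.80% were found in the NCI-H660 ORY-1001 list (6.13 to 7.54%), against 5.09% in the NCI-H660 vehicle list (4.51 to 5.74%). There were 169 of them in the ORY-1001 list alone and 85 in the vehicle list alone. Of the 1242 such C12 regions 9.34% were found in the NCI-H660 ORY-1001 list (7.84 to 11.1%) and 7.17% in the vehicle list (5.86 to 8.74%). These intervals overlapped, but both shares are of the same regions, so the overlap does not measure their difference. In the ORY-1001 list alone there were 54 of them, and in the vehicle list alone 27. Most of this difference lay in the 298 C12 regions shared with ORY-1001, of which 72 were found in the NCI-H660 ORY-1001 list and 49 in the vehicle list, so that the C12 and ORY-1001 values are not independent. Of the 944 C12-only regions 44 (4.66%) and 40 (4.24%) were found. PC3 regions present under vehicle showed no such excess, with 22% and 22.1% for ORY-1001 regions and 23.8% and 24.3% for C12 regions. The NCI-H660 lists were of similar length, at 11469 and 11886 regions, and each was 1 library.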

How the results depend on the processing

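Of 71 values of the 9 main results under other settings, 39 stayed within the 95% interval of the reported value and 32 moved outside it. Of the 71, 13 changed sign, 9 of them where the interval of the reported difference did not include 0 and 4 for the AP-1 motif, whose reported difference of 0.631 had an interval from -1.06 to 2.40. In the following, differences are C12-only minus ORY-only in percentage points. An overlap of 50% of the shorter region and a gap of up to 500 bp moved none outside its interval.

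The share of ORY-1001 regions found under C12 (44.1%) was 56.6% with scores of at least 50, 64.3% and 73.9% for the top 8352 and 4000 regions, 42.5% without recurrent places and 47.1% without chromosomes 8, 10 and 14, a setting added after seeing the data. The share of C12 regions found under ORY-1001 (72.5%) was 79.5%, 64.3%, 74.0%, 71.1% and 74.7% in the same order. With the top 8352 regions the differences were -11.7 for vehicle, -18.5 for ATAC, -18.0 for H3K27ac, -2.63 for JUN, -4.22 for promoters, -11.6 for the forkhead motif and -11.7 for the AP-1 motif. With the top 4000 they were 3.33, -0.495, -5.37, 15, -5.82, 2.02 and -4.50. With scores of at least 50 they were 3.74 for ATAC, -3.64 for H3K27ac, -2.45 for promoters, 6.57 for the forkhead motif and -2.69 for the AP-1 motif. With motifs searched within 250 bp the AP-1 difference was -0.0365. The H3K27ac difference was -3.35 where the mark had to cover at least 50% of the region. The vehicle difference was 12.6 and 12.9 with the vehicle lists of unlabelled antibody. Settings with a higher score limit or the top 4000 regions leave out weak calls of both lists by construction. The top 8352 regions leave out weak calls of the ORY-1001 list only, since they hold the whole C12 list. Other causes were not tested.

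No paired analysis was possible because each inhibitor had 1 list. The lists are limited by 1 library per inhibitor, unequal doses and unknown depth. A region missing from a list is a region that was not called there, and how far its signal lay under the threshold is not in the lists. The lists of chromatin marks came from cells without inhibitor, so they describe the places and not their state under treatment.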

Other observations

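The 293 places held by both inhibitor lists and not by vehicle differed from places of a single inhibitor in several measured features. FOSL1 regions were present at 25.9% of them, against 4.20% of places under ORY-1001 alone, 4.87% under C12 alone and 20.9% of places in all 3 lists. JUN was present at 31.7%, against 9.55% and 11.1%. The shared regions absent from vehicle also had higher median scores, at 60 under ORY-1001 and 50 under C12. The ORY-only and C12-only regions absent from vehicle had 35 and 31. Repeated central bases were more frequent too, at 43.3% against 25.5% and 26.9%. Recurrent places were not left out here, and the part of score and repeated sequence in these shares was not tested. Forkhead matches were found in 33.4%, close to the 32.8% and 33.3% of places of a single inhibitor and below the 73.7% of places in all 3 lists. Intergenic sequence held 68.1% of the shared regions absent from vehicle and introns 24.5%, and their median distance to a transcription start was 124 kb. The leading pair of them, 417791 bp from MAP3K7 and in an intron of MARCHF3, scored 571 and 460 under ORY-1001 and 344 and 293 under C12. Their central 31 bases occurred 183643 and 17 times in the genome.

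JUN regions of PC3 cells treated with an siRNA against FOXA2 were found at 8.74% of the ORY-only and 5.92% of the C12-only regions present under vehicle, and at 24.2% of the shared regions, against 8.57% of all vehicle regions. Among regions absent from vehicle the order was the other one, with 3.46% of ORY-only and 4.98% of C12-only regions, a difference of 1.52 percentage points (0.179 to 3.17). Over all regions the shares were 5.58% and 5.53%.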
